A study of Homo sapiens with 34 samples.

Results

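The REV-ERB and ROR nuclear receptors were followed at the level of mRNA and of binding of the clock activators at their genes. Members were the 3 loci whose listed names hold *NR1D1* (REV-ERBα), *NR1D2* (REV-ERBβ), or *RORA* (RORα), out of 28690 loci in the expression tables, together with the shared BMAL1/CLOCK sites named after them. All 3 were among the 51.2% of loci, those of highest mean, that were taken as expressed. REV-ERBs and RORs are nuclear receptors that bind the same DNA element, the ROR response element, in genes such as *ARNTL*, which encodes BMAL1. REV-ERBs repress from it with the corepressor NCOR1 and the deacetylase HDAC3 and have heme as their ligand, while RORs activate from it. The REV-ERB genes are themselves switched on by BMAL1 and CLOCK through E-boxes, so the receptors close a second loop of the clock beside the one made by the PER and CRY repressors.

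All libraries came from 1 human osteosarcoma line, U2OS, carrying a *Bmal1*:*luc* reporter, that is luciferase under the promoter of *Bmal1*. Cells synchronized with dexamethasone received 5 mM 6AN (6-aminonicotinamide, an inhibitor of the pentose phosphate pathway, a major source of NADPH) or DMSO as control. RNA-seq covered 12 time points labelled 0 to 44 hr, every 4 hr, in each condition, with 1 library per point and 24 in all. The time between addition of 6AN and the label of 0 hr is not given in the sources used here. At that label *NR1D1* was at 2.16 and *RORA* at 2.69 times control in 6AN. ChIP-seq was made after 24 hr of incubation for BMAL1, CLOCK, H3K9ac, H3K4me3, and input, with 1 library for each in each condition and 10 in all. Those 24 hr therefore cannot be matched to an RNA-seq label. Expression is given as FPKM (fragments per kilobase of transcript per 1000000 mapped fragments), and the depth of the RNA-seq libraries in reads is unknown. Relative depth, read from the steps between low values, ran from 0.581 to 1.31 times the median library in control and from 0.697 to 1.56 times in 6AN.

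The cells expressed *RUNX2*, the osteoblast transcription factor, at 14 FPKM in control and 13.9 in 6AN, and 5 of 8 osteoblast markers were among the expressed loci. The matrix genes *COL1A1* (128.1 and 33.9 FPKM) and *SPARC* (323.2 and 128.6) and the phosphatase gene *ALPL* (6.41 and 3.73) were lower in 6AN at 12 of 12 time points. The marker *BGLAP* had nearly the same mean in both conditions (23.1 and 22.8 FPKM), with overlapping ranges. *COL1A2*, *SP7*, and *IBSP* were near 0, and the 8 summed to 426.6 to 578.6 FPKM in control and 138.1 to 305.3 in 6AN. The 4 markers of other cell types (*PTPRC*, *ALB*, *CDH5*, and *EPCAM*) summed to at most 2.22 FPKM in any library. The part of this shift in *COL1A1*, *SPARC*, and *ALPL* in the results below was not tested. Fewer cells of a kind and less RNA per cell cannot be told apart in these bulk samples.

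Promoter sequences are shown for the 2 REV-ERB genes because binding of BMAL1 and CLOCK was called on them. They are RefSeq windows of 300 bases on GRCh38.p14, from 250 before to 50 after an annotated start, written 5′ to 3′ on the gene's strand. Capitals mark the E-box CACGTG, the E-box-like CACGTT, and the D-box TTATGTAA, each searched on both strands and here without overlap. The *NR1D1* window is chr17:40100540-40100839 on the minus strand, and the *NR1D2* window, at the downstream of its 2 listed starts, is chr3:23945871-23946170 on the plus strand.
NR1D1: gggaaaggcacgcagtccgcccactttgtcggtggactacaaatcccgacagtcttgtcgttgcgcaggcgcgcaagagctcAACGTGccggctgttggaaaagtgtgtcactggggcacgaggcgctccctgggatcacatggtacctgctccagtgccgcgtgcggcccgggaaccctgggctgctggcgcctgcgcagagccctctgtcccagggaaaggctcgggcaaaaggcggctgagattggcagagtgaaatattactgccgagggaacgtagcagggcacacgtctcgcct
NR1D2: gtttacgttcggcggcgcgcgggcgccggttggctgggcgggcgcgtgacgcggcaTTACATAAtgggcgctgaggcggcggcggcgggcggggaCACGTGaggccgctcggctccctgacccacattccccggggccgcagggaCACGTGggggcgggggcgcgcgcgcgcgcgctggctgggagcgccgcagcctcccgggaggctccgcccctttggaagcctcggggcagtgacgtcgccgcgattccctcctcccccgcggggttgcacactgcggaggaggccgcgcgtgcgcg

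The *NR1D2* window held 2 E-boxes, 44 bases apart, and 1 D-box, the element of the PAR bZIP factors DBP and TEF and of their antagonist NFIL3. The first E-box (chr3:23945966-23945971) and the D-box (chr3:23945927-23945934) lay inside the called binding interval chr3:23945792-23946007, and the second E-box (chr3:23946016-23946021) lay outside it. In the *NR1D1* window there was no E-box and 1 E-box-like match, at chr17:40100752-40100757, inside the interval chr17:40100607-40100828. None of these motifs was in the other *NR1D2* window, whose start lies upstream (chr3:23945036-23945335), or in the single *RORA* window of the table, chr15:60627481-60627780. That *RORA* window is at a start inside the gene, which spans chr15:60488284-61229302 on the minus strand. The 5′ end of *RORA* was not searched. The ROR half-site AGGTCA was in none of these 4 windows. Over all 35116 RefSeq windows of this length, 7.26% held an E-box, 0.663% held 2 or more, 5.34% the E-box-like sequence, 0.886% the D-box, and 13.8% the ROR half-site. A match is a description of letters, and the windows do not cover the other sites described below.

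*NR1D1* mRNA went up and down over the course in both conditions, with its highest values at different hours. In control it read 18.6, 12.6, 9.43, 12.8, 19.6, 16.8, 15.7, 13.5, 12.9, 16.8, 24.4, and 22.5 FPKM from 0 to 44 hr. In 6AN the same hours gave 40.2, 43.6, 31.7, 19.6, 16.3, 20.3, 19.9, 28.4, 32.5, 22, 15.8, and 16.3 FPKM. The control profile therefore had its lows at 8 and 32 hr, whereas 6AN had its highs at 4 and 32 hr and its lows at 16 and 40 hr. The ratio of 6AN to control ran from 0.646 at 40 hr to 3.47 at 4 hr, so the ranges of the conditions overlapped.

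*NR1D2* mRNA followed the same course with a later peak. In control it read 25.3, 21.2, 13.9, 13.5, 19.6, 22.6, 25.3, 19.6, 17.7, 19.2, 25.3, and 27.4 FPKM. In 6AN it read 26.8, 31.7, 32.8, 24.5, 19.3, 18, 21.1, 32.9, 34.6, 35.7, 24.4, and 25.6 FPKM. Values at 8 hr differed most, 2.36-fold higher in 6AN, and those at 20 hr differed in the opposite direction, at 0.798 of control.

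*RORA* mRNA was low and had no comparable waves. In control it read 1.68, 2.81, 2.02, 2.02, 2.44, 2.11, 2.64, 2.66, 2.91, 2.92, 2.93, and 2.77 FPKM. In 6AN it read 4.52, 4.50, 4.68, 3.94, 4.34, 4.35, 5.34, 4.50, 4.81, 4.81, 4.49, and 4.97 FPKM. Every 6AN library was above every control library. Within each condition the mean of the last 6 time points was above that of the first 6, at 2.81 against 2.18 FPKM in control and 4.82 against 4.39 in 6AN.

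**Figure D1:**
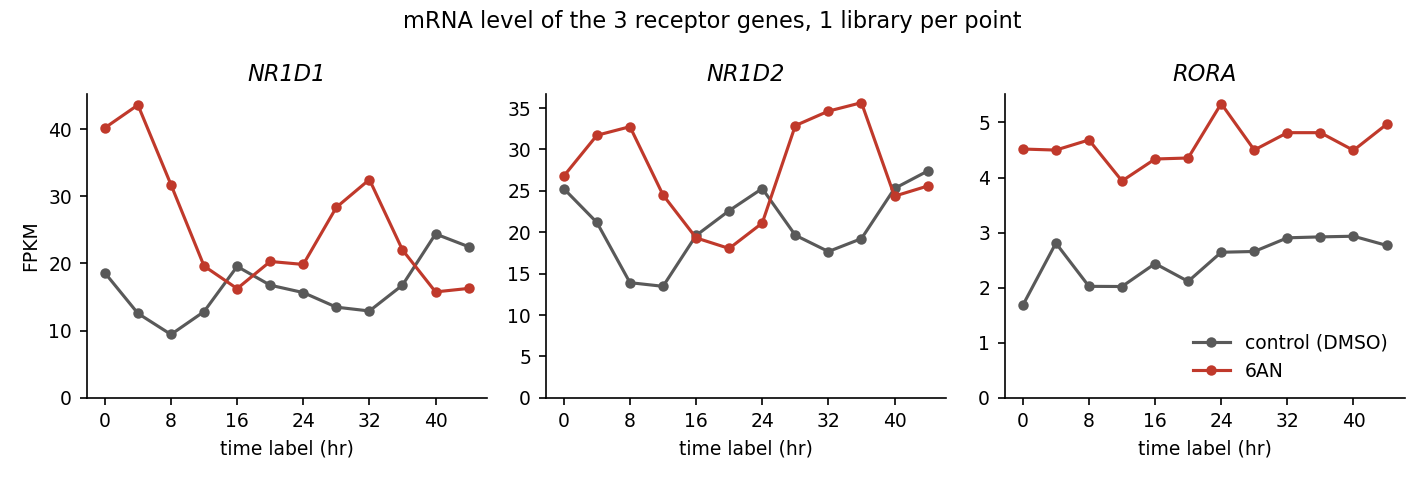
FPKM (vertical axes, from 0) of *NR1D1*, *NR1D2*, and *RORA* against the labelled time in hours, 1 library per point, grey for control and red for 6AN. The curves of both REV-ERB genes cross, with 6AN highest at 4 hr (43.6 FPKM) for *NR1D1* and 36 hr (35.7) for *NR1D2*, while those of *RORA* do not meet.

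The question put to these time courses was whether PPP inhibition altered the 24 hr rhythm of each receptor gene. Rhythm was tested with an umbrella permutation test, which asks for a rise and fall repeated over both days at a fixed 24 hr period. It was also tested with a harmonic regression in limma on log2(FPKM + 1) with a 24 hr cosine, both over the 12 libraries of a condition. The part of the longer periods fitted below for 6AN in the calls of these 24 hr tests was not tested. At a p of 0.01 or less, the umbrella permutation test called 1 of the 3 genes in control, *NR1D1* (p = 0.00506), where it called 0.946% of all expressed loci, and none in 6AN, where it called 0.987%. That call of *NR1D1* was lost without the library of 8, 16, 24, 28, or 40 hr, and without that of 20 or 40 hr *NR1D2* was called. The umbrella permutation p was 0.0135 for *NR1D2* in control, and in 6AN it was 0.0155 for *NR1D1* and 0.0415 for *NR1D2*. Harmonic regression in limma called both REV-ERB genes in control (*NR1D1*, p = 0.00117; *NR1D2*, p = 0.00152) and in 6AN (p = 0.00125 and 0.00396), against 1.06% and 1.07% of expressed loci, shares close to the threshold itself. No locus passed after Benjamini-Hochberg adjustment over all expressed loci in any of these tests. The adjusted p in limma was 0.694 and 0.68 for *NR1D1*, and 0.72 and 0.684 for *NR1D2*, in control and 6AN. At an unadjusted p under 0.05 the umbrella test held 736 and 626 loci and harmonic regression 758 and 700. *RORA* had a p of 0.855 and 0.483 by harmonic regression in limma and 0.704 and 0.509 by the umbrella permutation test.

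The 24 hr component was compared between conditions directly. In a limma fit over all 24 libraries, with a term that absorbs the level of each condition, the 24 hr component of *NR1D1* differed with p = 4.93e-06 (Benjamini-Hochberg adjusted p = 0.0121) and that of *NR1D2* with p = 1.99e-05 (adjusted p = 0.0418). Only 7 loci, 0.0477% of those tested, passed this test, and the 2 REV-ERB genes were ranked 6 and 7 behind *ARNTL*, *PER3*, *CRY1*, *TEF*, and *PLAT*. *RORA* did not pass (p = 0.605, adjusted p = 1 in limma). With the time point as a block, which pairs the libraries of the same hour, the limma adjusted p was 0.0886 for *NR1D1*, no longer called, and 0.00452 for *NR1D2*. These calls were close to the threshold: leaving out 1 time point at a time gave between 0 and 2 called members, and over all alternatives the limma adjusted p ran from 0.00449 to 0.123 for *NR1D1* and from 0.00452 to 0.317 for *NR1D2*. Neither gene was called when the libraries of 4, 8, 16, 32, 40, or 44 hr, each in turn, were left out.

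At a fixed 24 hr period, *NR1D1* peaked at 18.7 ± 0.721 hr (SE, 12 libraries) in control and at 4.69 ± 0.73 hr in 6AN, 9.997 ± 1.03 hr later. *NR1D2* peaked at 21.5 ± 0.747 hr in control and at 7.22 ± 0.858 hr in 6AN, 9.68 ± 1.14 hr later. Both shifts are counted the shorter way around 24 hr, so a delay of this size and the matching longer advance cannot be told apart. The fitted amplitude, on the log2 scale, was 0.43 ± 0.08 and 0.57 ± 0.11 for *NR1D1* and 0.36 ± 0.07 and 0.36 ± 0.08 for *NR1D2*, which is a peak of 1.82 and 2.22 times the trough for the first and 1.66 and 1.64 times for the second. *RORA* had amplitudes of 0.04 ± 0.08 and 0.05 ± 0.04, so no peak time is given.

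The fitted period was longer in 6AN for both REV-ERB genes. With the period free between 16 and 32 hr and a linear trend in the fit, *NR1D1* had a period of 21.9 ± 0.697 hr (jackknife SE over the 12 libraries) in control and 28.1 ± 2.81 hr in 6AN. For *NR1D2* it was 21.6 ± 0.71 and 27.5 ± 1.99 hr. The changes were 6.2 ± 2.9 and 5.9 ± 2.11 hr, with no test. The hours of single lows did not show this for *NR1D1*, whose lowest values on each day were 24 hr apart in both conditions. Its highest values on each day were 24 hr apart in control and 28 hr apart in 6AN, with libraries every 4 hr. Leaving out 1 time point gave 21.5 to 22.3 hr in control and 26.5 to 29.7 hr in 6AN for *NR1D1*. For *NR1D2* it gave 21.3 to 22 hr and 26.5 to 28.9 hr. These values did not overlap between conditions. Such fits share most of their libraries, so their spread is not the error of the period, which the SE above describes. *ARNTL*, fitted in the same way, went from 22.7 ± 1.17 to 25.8 ± 0.981 hr. The period of *RORA* was not determined: in control it ran from 16 to 32 hr, the whole grid, when 1 time point was left out. With periods this different, a shift at a fixed 24 hr holds both a change of phase and a change of period, which cannot be told apart in less than 2 cycles of 6AN.

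**Figure D2:**
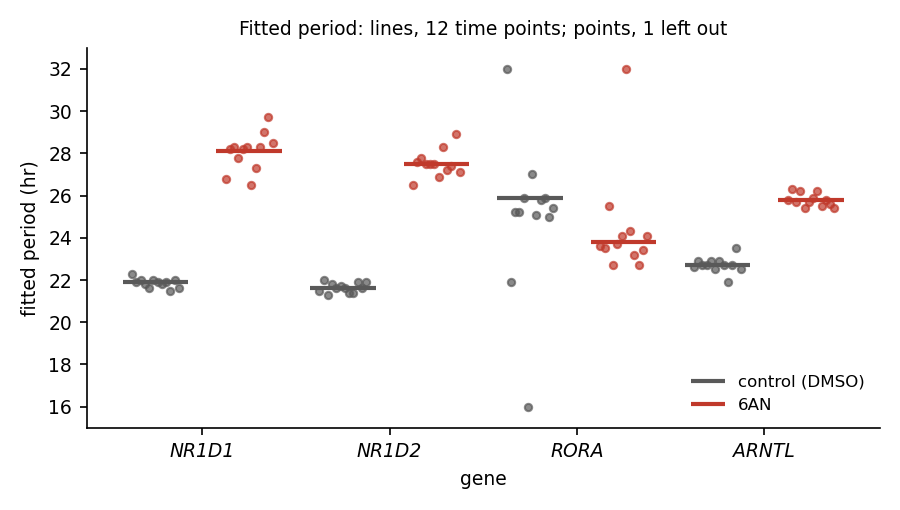
Fitted period in hours (vertical axis) of the 3 receptor genes and *ARNTL*, grey for control and red for 6AN. Horizontal lines are fits to 12 time points and dots fits with 1 time point left out. Dots of a condition share most of their libraries, so their spread is not the error of the period. Grey and red dots are apart for *NR1D1* (21.5 to 22.3 against 26.5 to 29.7 hr) and *NR1D2*, and scattered for *RORA*.

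Levels over the whole time course are given side by side, with no test, because the control and 6AN tables were normalised separately. Over the expressed loci the median log2 ratio of mean FPKM was -0.04. *NR1D1* averaged 16.3 ± 4.4 FPKM (SD over 12 time points) in control and 25.5 ± 9.58 in 6AN, a ratio of 1.57 (log2 ratio 0.65), and was higher in 6AN at 9 of 12 time points. *NR1D2* averaged 20.9 ± 4.5 and 27.3 ± 6.12 FPKM, a ratio of 1.31 (log2 ratio 0.39), and was higher at 7 of 12. *RORA* averaged 2.49 ± 0.429 and 4.60 ± 0.356 FPKM, a ratio of 1.85 (log2 ratio 0.89), and was higher at 12 of 12. Ranges with 6AN wholly above control were found at 5.66% of expressed loci and ranges wholly below at 9.92%, and *RORA* was the 1 member with such a range. A larger ratio than that of *RORA* was measured at 4.19% of expressed loci.

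Per length, *NR1D2* was the most abundant of the 3 and *RORA* the least. In control *NR1D2* was above *NR1D1* at 12 of 12 time points, by 1.003 to 1.68 times. In 6AN it was above *NR1D1* at 9 of 12, and the means of the 2 genes (27.3 and 25.5 FPKM) differed by less than their spread over time. *NR1D1* exceeded *RORA* 4.45 to 11.1 times in control and 3.28 to 9.69 times in 6AN.

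Other receptors were read beside the members. *RORB*, the ROR of retina and brain, averaged 0.805 ± 0.173 FPKM in control and 1.64 ± 0.232 in 6AN, and its ranges did not overlap either (0.544 to 1.19 and 1.23 to 1.94). *THRB*, which encodes thyroid hormone receptor β, averaged 1.16 and 1.66 FPKM and was higher in 6AN at 12 of 12 time points, with overlapping ranges. *THRA*, which encodes thyroid hormone receptor α on the opposite strand, shares the interval chr17:40062192-40100725 with *NR1D1* in the tables, and the RefSeq genes overlap by 1075 bases at their 3′ ends. *THRA* averaged 18 ± 1.31 and 18.8 ± 2.73 FPKM and was not called rhythmic in either condition. Its Pearson's r with *NR1D1* over the 12 libraries of each condition was -0.26 in control and 0.32 in 6AN. Whether counting used strand is not given in the sources used here, so fragments from the overlap cannot be told apart. *RORA* shares its interval, chr15:60479177-61229303, with the antisense RNA *RORA-AS1*, which had 0.843 ± 0.395 and 0.927 ± 0.739 FPKM, with overlapping ranges, and with *RORA-AS2*, listed at 0 in every library.

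Genes that REV-ERBs and RORs act on were read next. Of 5 listed targets, all expressed, harmonic regression called 2 in control (*ARNTL* and *CRY1*) and 3 in 6AN (these and *NFIL3*), where it called 1.06% and 1.07% of all expressed loci. The umbrella test called 2 in each condition, where it called 0.946% and 0.987% of all expressed loci. The limma difference test, which called 0.0477% of loci, called *ARNTL* (adjusted p = 0.000183) and *CRY1* (adjusted p = 0.00113). *ARNTL* read 5.62, 6.29, 8.86, 11.2, 9.26, 5.52, 5.93, 6.68, 8.11, 10.2, 6.68, and 5.80 FPKM in control, highest at 12 and 36 hr, close to the lows of both REV-ERB genes. In 6AN it read 10.9, 7.14, 3.29, 3.58, 8.95, 12.6, 11.5, 7, 4.75, 4.51, 5.26, and 8.67 FPKM, lowest at 8 hr, where *NR1D2* was at 32.8. For *NR1D1* the opposition was not kept at every hour. It was at 16.8 FPKM, near its mean, at 36 hr in control, and at 40.2 FPKM at 0 hr in 6AN, where *ARNTL* was also high. The mean of *ARNTL* was 7.51 FPKM in control and 7.35 in 6AN, while those of its partner gene *CLOCK* (7.99 and 6.00) and of *NPAS2* (29.3 and 16.7), a CLOCK paralog, were lower in 6AN, at 12 of 12 time points each. Other targets went the other way. *NFIL3* (10.1 and 16.3 FPKM) was higher in 6AN at 12 of 12 time points and *CRY1* (8.99 and 12.75) at 8 of 12, both with overlapping ranges. The median log2 ratio of the 5 targets, over genes that moved in both directions, was -0.03, against -0.04 over all expressed loci.

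The peaks of the REV-ERB genes were placed among those of other clock genes. At a fixed 24 hr period, *NR1D2* peaked 2.85 ± 1.04 hr after *NR1D1* in control and 2.53 ± 1.13 hr after it in 6AN. *TEF* peaked 2.06 ± 0.988 and 1.67 ± 1.05 hr after *NR1D2*. *PER3* followed *TEF* by 0.58 ± 0.901 hr in control, which does not settle their order, and by 2.61 ± 0.808 hr in 6AN, and *CRY1* and *ARNTL* came later. From the peak of *NR1D2* to that of *ARNTL* there were 13.7 ± 0.913 hr in control and 14.9 ± 0.983 hr in 6AN, and from that of *NR1D1* 16.6 ± 0.892 and 17.4 ± 0.873 hr. Intervals of the 2 conditions differed by less than their combined SE for these pairs with *ARNTL* and for *NR1D1* with *NR1D2*. These errors treat the genes as independent, although each condition's genes were measured in the same 12 libraries.

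**Figure D3:**
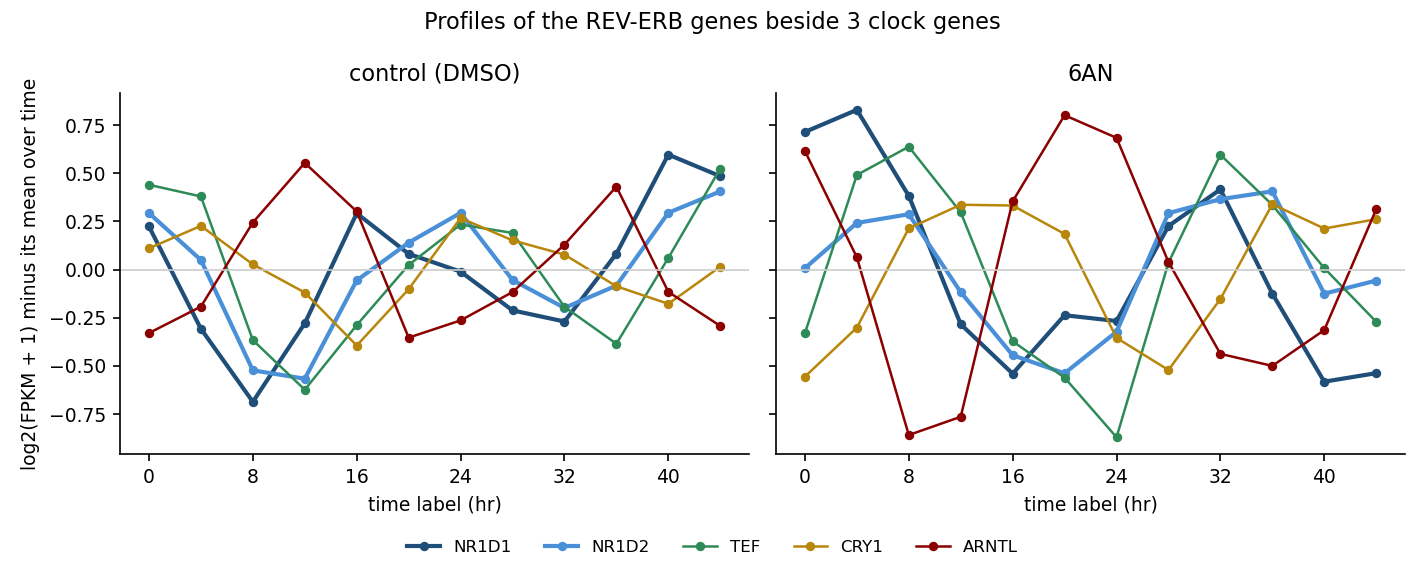
log2(FPKM + 1) minus its mean over the 12 time points (vertical axis) against the labelled time in hours, for *NR1D1*, *NR1D2*, *TEF*, *CRY1*, and *ARNTL* in control (left) and 6AN (right), 1 library per point. *ARNTL* is high where both REV-ERB genes are low in control (12 hr), and in 6AN it is lowest at 8 hr, where *NR1D2* is high. The opposition does not hold at every hour for *NR1D1*. At 36 hr in control, where *ARNTL* is high again, *NR1D1* (16.8 FPKM) is near its mean. At 0 hr in 6AN, *ARNTL* (10.9 FPKM) and *NR1D1* (40.2 FPKM) are both high.

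Profiles most like each member over both conditions were ranked by the smaller of the 2 Pearson's r, as a description over 12 libraries each that share time and library. *NR1D2* was most like *TEF* (0.84 in control and 0.81 in 6AN) and *DBP* (0.84 and 0.78), both PAR bZIP genes of the clock output, followed by *TBC1D15*, *CTHRC1*, and *FCF1*. The profiles most opposite to it were those of *LARGE* (-0.70 and -0.72), *EGR2* (-0.85 and -0.69), and *ARNTL* (-0.82 and -0.63). *NR1D1* was most like *CTHRC1* (0.76 and 0.76), *FOXJ2*, *BNC2*, *TMC7*, and *IDH2* and most opposite to *NEFL* (-0.67 and -0.74), *ZNF480*, and *ENC1*. Its r with *ARNTL* was only -0.36 and -0.09, and with *NR1D2* it was 0.77 and 0.61. *RORA* was most like *KRIT1* (0.76 and 0.72), *TMEM233*, *FMN1*, *SLC30A6*, and *MAVS* and most opposite to the joint locus of *P2RX5* and *TAX1BP3* (-0.85 and -0.82), *CLPTM1L*, and *ILK*, none of them in the clock lists used here.

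Genes that act with or on the receptor proteins were read in the same way. None of the 5 expressed corepressor genes (*NCOR1*, *HDAC3*, *TBL1X*, *TBL1XR1*, and *GPS2*), 4 expressed ROR coactivator genes, 12 genes of heme synthesis and breakdown, and 5 genes of REV-ERB turnover was called by harmonic regression in either condition, nor for a difference, which at background shares of 1.06%, 1.07%, and 0.0477% is not a result about these genes. In level, where 5.66% of expressed loci were wholly above control in 6AN and 9.92% wholly below, *HDAC3* was the 1 corepressor gene whose 6AN range was wholly below control (29.3 and 22.8 FPKM, log2 ratio -0.37). Of the coactivator genes, *CREBBP* (18.1 and 28.3 FPKM), *NCOA1* (9.45 and 11.9), and *EP300* (23.2 and 26.9) had 6AN ranges wholly above control, while *NCOA2* (10.9 and 9.83) was lower in 6AN at 12 of 12 time points with overlapping ranges. *UROS* (29.5 and 13.4 FPKM) and *UROD* (66.2 and 45.7), consecutive enzymes of heme synthesis, were wholly below, while *ALAS1*, the rate-limiting enzyme, had the same mean (20.9 FPKM in both) and *HMOX1*, which breaks heme down, also (32.5 and 32.4). The ubiquitin ligase genes *SIAH2* (10.4 and 15 FPKM) and *MYCBP2* (4.94 and 6.24) were wholly above, while the ligase gene *HUWE1* (36.7 and 31.4) was lower at 12 of 12 time points with overlapping ranges. Median log2 ratios were -0.03 for corepressors, 0.27 for coactivators, -0.13 for heme genes, and 0.21 for turnover genes.

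E-box clock genes, which share the activators of the REV-ERB genes, were 8 expressed of 10 listed. Harmonic regression called 2 in control (*PER3* and *TEF*) and 5 in 6AN (*PER2*, *PER3*, *CRY2*, *DBP*, and *TEF*), against 1.06% and 1.07% of all expressed loci. The umbrella test called none in control and 3 in 6AN, against 0.946% and 0.987% of all expressed loci. The limma difference test, which called 0.0477% of loci, called *PER3* (adjusted p = 0.000516) and *TEF* (adjusted p = 0.00305). Their median log2 ratio of 6AN to control was 0.43, over members that went both ways: *PER1* was at 1.04 and *BHLHE40*, wholly above control, at 0.78, and *BHLHE41*, wholly below, at -2.15.

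Binding of BMAL1 and CLOCK was called at both REV-ERB genes in both conditions and not at *RORA*. Shared sites, windows of 1000 bases where both factors were called, numbered 147 in control and 439 in 6AN. In each list 3 sites were named after *NR1D1*, 1 after *NR1D2*, and none after *RORA*. Of the 4001 merged binding intervals, none lay within 10000 bases of the *RORA* or *RORB* locus. Signals are tags per 10000000 in the window, and each value rests on 1 library, so its interval covers counting error only. Both conditions were sampled at the same single hour. The fitted mRNA peaks of the conditions lay 9.997 hr apart for *NR1D1* and 9.68 hr apart for *NR1D2*. Whether binding was at the same phase in both conditions at that hour was not tested. The folds below therefore compare that hour only and do not give the level of binding over a cycle.

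The *NR1D2* site, chr3:23945405-23946405, lay at the promoter, 216 bases before the annotated start used by the authors' annotation, and holds both E-boxes printed above. Its CLOCK signal was 641.1 in control and 1037 in 6AN, a fold of 1.62 (exact 95% interval 1.38 to 1.89). Its BMAL1 signal was 357.8 and 316.6, a fold of 0.885 (0.742 to 1.05). Input at this site was 6.91 and 14.5, a fold of 2.1 (0.999 to 4.25), on 23 and 14 tags. The site was ranked 2 among 439 for both factors in both conditions, yet 334 by its CLOCK change and 404 by its BMAL1 change.

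The strongest of the *NR1D1* sites was chr17:40098644-40099644, in intron 1 of 7, 1581 bases after the start. CLOCK there was 356.7 in control and 751.5 in 6AN, a fold of 2.11 (1.73 to 2.57), and BMAL1 was 212.4 and 283.0, a fold of 1.33 (1.08 to 1.64). It was ranked 4 of 439 for CLOCK in both conditions, and for BMAL1 5 in control and 4 in 6AN. Input was 7.06 and 9.33.

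The intergenic site chr17:40107839-40108839, 7614 bases before the start of *NR1D1*, had the largest folds of the 4. CLOCK was 160.6 in control and 554.9 in 6AN, a fold of 3.46 (2.65 to 4.66), and BMAL1 was 108.5 and 203.3, a fold of 1.87 (1.43 to 2.48). The CLOCK interval overlapped that of the promoter site of *NR1D1*. By CLOCK change it was ranked 63 of 439 and by BMAL1 change 86. It carried little H3K4me3, a mark of active promoters (4.68 and 8.75, on 1 and 4 tags), where the other 3 sites had 179.5 or more. Input was 8.11 and 12.4.

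The promoter site of *NR1D1*, chr17:40100218-40101218, lay 7 bases after the start used by the authors' annotation, as do the distances of the other *NR1D1* sites count from it. That start is not the RefSeq start of the promoter window printed above. The site holds that whole window, its E-box-like match included, and was the weakest of the 4. CLOCK was 103.0 in control and 246.1 in 6AN, a fold of 2.39 (1.66 to 3.49), and BMAL1 was 86.4 and 105.1, a fold of 1.22 (0.862 to 1.70). Input was 7.66 and 11.9. The promoter window with the E-box-like match thus had lower signal than the intron in both libraries of both factors.

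On the scale of signal + 1, and at the single hour sampled, CLOCK was over 1.5-fold higher in 6AN at 4 of the 4 sites. The same held at 81.8% of all 439 sites. BMAL1 was over 1.5-fold higher at 1 of the 4 and at 40.5% of all. The sites were chosen by calls in the 6AN libraries themselves, and over all 439 the median fold was 2.15 for CLOCK, 1.38 for BMAL1, and 1.29 for input, so the share of members near the background is not a result about them. With the median change subtracted, the log2 change of CLOCK was 0.68 at the intergenic site, 0.15 at the *NR1D1* promoter, -0.03 in intron 1, and -0.41 at *NR1D2*. With the input change subtracted instead, CLOCK at *NR1D2* also turned, to -0.28, on the few input tags given above. Input passed 1.5-fold on the same scale at 31.7% of sites and at 1 of these 4, that of *NR1D2*. As a plain ratio of signals, the input fold was also past 1.5 at the intergenic site (1.53) and the *NR1D1* promoter (1.56).

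Histone marks at the 4 sites had smaller folds than CLOCK. H3K9ac, a mark of active chromatin, passed 1.5-fold at none of them, where 23.5% of sites did, and H3K4me3 at 1, the intergenic site on 1 and 4 tags, where 14.4% did. At *NR1D2* H3K9ac was 180.9 in control and 233.0 in 6AN, a fold of 1.29 (0.814 to 2.01), and H3K4me3 was 307.5 and 416.7, a fold of 1.36 (1.06 to 1.76). At the *NR1D1* promoter H3K9ac was 99.3 and 136.2 (fold 1.37, 0.761 to 2.65) and in intron 1 it was 85.1 and 90.4 (fold 1.06, 0.543 to 2.19). At the intergenic site it was 35.5 and 26.6 (fold 0.75, 0.236 to 2.61). With the input change subtracted, the log2 change of H3K9ac was below 0 at all 4 sites, from -0.13 to -0.96. The control H3K9ac library held 1409550.5 tags, the fewest of the 10 libraries, so that 5 to 26 tags stood behind each control value. The interval of the fold held 1 at all 4 sites, so no difference in H3K9ac was detected at this depth.

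**Figure D4:**
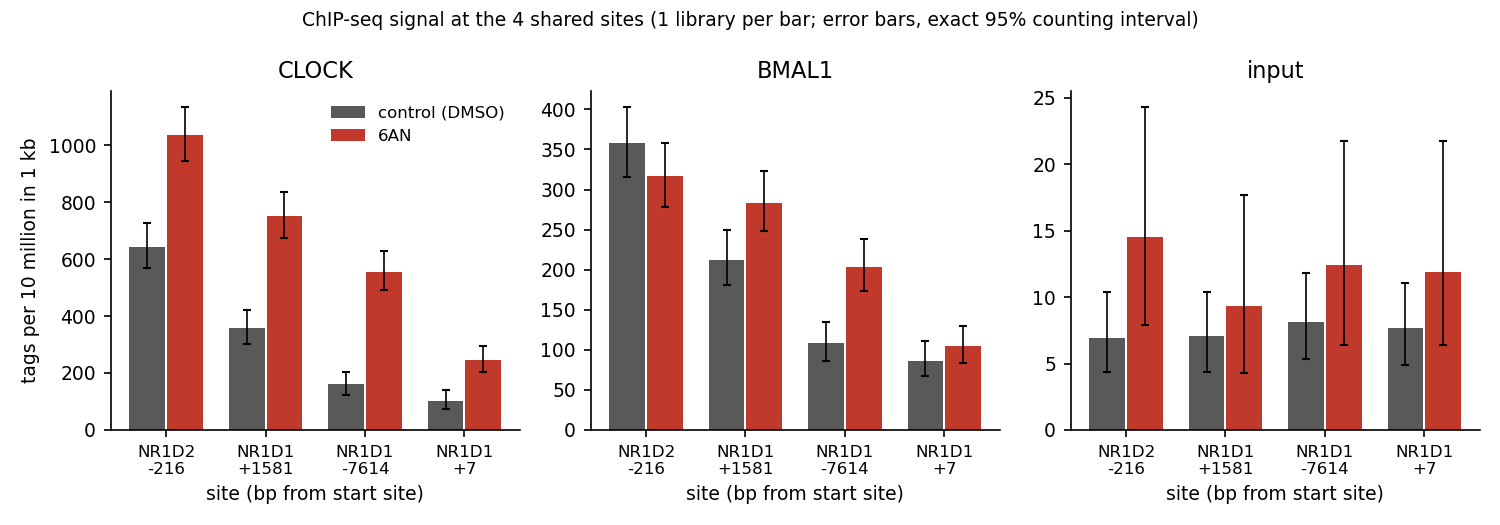
CLOCK, BMAL1, and input signal (tags per 10000000 in 1000 bases, vertical axes from 0) at the 4 shared sites, named by gene and distance from the start site in bases. Bars are single libraries, grey for control and red for 6AN, and error bars are exact 95% counting intervals. CLOCK bars are apart at all 4 sites (641.1 against 1037 at *NR1D2*), BMAL1 bars at the intergenic site (108.5 against 203.3).

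**Figure D5:**
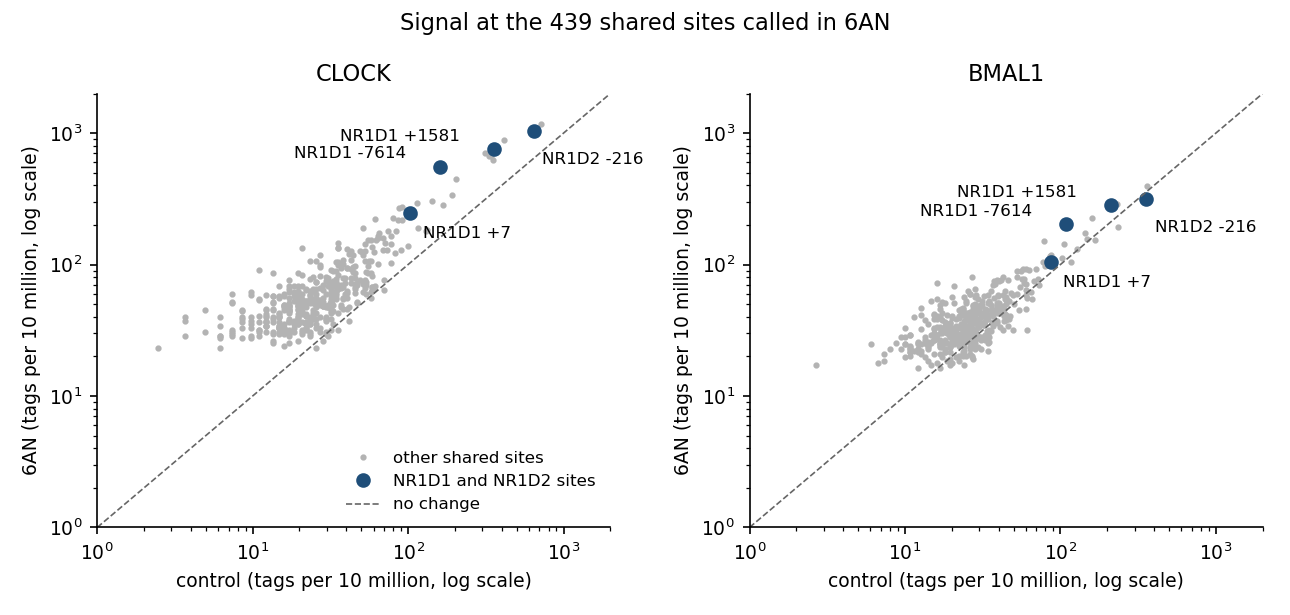
Signal of CLOCK (left) and BMAL1 (right) in control and 6AN at the 439 shared sites called in 6AN, both axes in tags per 10000000 on a log scale, with the dashed line at no change. Grey points are other sites and blue points the 4 sites of *NR1D1* and *NR1D2*, which lie in the upper part of the cloud, where *NR1D2* falls below the line for BMAL1 (357.8 and 316.6).

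On the *THRA* side of the shared interval 2 further intervals were called. That at chr17:40068870-40069204 was called for BMAL1 in both conditions and for CLOCK in 6AN, and that at chr17:40072004-40072215 for both factors in 6AN only. Both were named after *THRA* in the 6AN list, 6245 and 9294 bases after its start. CLOCK signal was 27 and 118.7 at the first and 23.3 and 105.5 at the second, in control and 6AN, all below the signal at the *NR1D1* intron and intergenic sites of the same condition. *THRA* mRNA, as given above, was not called rhythmic.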

How the data were processed

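RNA-seq values were FPKM that the authors deposited per locus, 1 table for each condition, made with TopHat, Bowtie, and Cufflinks on hg38 per the submitters' processing notes. The ChIP-seq values were HOMER annotated signal (coverage as tags per 10000000 in 1000 bases), deposited with HOMER peak scores and peak names in a merged list. Aligner versions are not given in the sources used here, nor whether the triplicate RNA extractions were pooled. Hours are those of the labels.

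The 51.2% of loci of highest mean, down to 0.698 FPKM, were tested, as many as the study counted as expressed. Umbrella p-values came from 1000000 random orders of the time points. Harmonic regression used limma 3.58.1 in R 4.3.3 on log2(FPKM + 1), with Benjamini-Hochberg adjustment. Periods were fitted on a 0.1 hr grid. ChIP-seq changes are log2 ratios of signal + 1, folds are ratios of signal, and fold intervals are exact conditional intervals on tag counts (95%, counting error only). The scripts were tested on simulated data. Time points are 1 library each, so limma p-values measure spread around a fitted curve, and umbrella p-values measure the order of the values over time.

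Members and lists were chosen with earlier results of these data known. Of the genes first listed, 3 are not reported here and were left out of the counts and medians. Named genes were the members, genes sharing their interval, at most 3 per list with the smallest harmonic p plus *ARNTL*, 5 most like and 3 most opposite loci per member, and every site or interval within 10000 bases. The other genes named for a level or for a call were chosen after their values were seen.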

Additional observations from a re-analysis of the deposited data

Results flagged for a closer look

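The 24 hr rhythm of *NR1D1* differed between 6AN and control (limma, Benjamini-Hochberg adjusted p = 0.0121), with a fitted peak at 18.7 hr in control and 4.69 hr in 6AN. The 24 hr rhythm of *NR1D2* differed as well (limma, adjusted p = 0.0418), with peaks at 21.5 and 7.22 hr. Both were flagged because the test was of the difference itself. Their p-values rest on 12 libraries in each condition, and both were lost under alternatives given next. *NR1D2* was lost more often: with 1 time point left out, it stayed called only without 12 or 36 hr.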

How the results depend on the processing

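The number of receptor genes called by the umbrella test was 1 in control and 0 in 6AN, and it was 2 in both at a p of 0.05 and 2 in control with a linear trend removed. Leaving out 1 time point gave 0 to 2 in control (0 without 8, 16, 24, or 28 hr, *NR1D2* in place of *NR1D1* without 40 hr, and 2 without 20 hr) and 0 to 1 in 6AN (1, *NR1D1*, without 0 or 28 hr). Harmonic regression called 2 in each condition, 0 in control with a 28 hr cosine, and 2 to 2 in control and 1 to 2 in 6AN with 1 time point left out (*NR1D2* was lost without 20 or 32 hr). The limma difference test called 2, but 1 with a pseudocount of 0.1 (*NR1D1*), 1 without the filter on low values (*NR1D1*), 1 with the time point as a block (*NR1D2*), and 0 to 2 with 1 time point left out (*NR1D1* alone without 0, 20, 24, or 28 hr, and none without 4, 8, 16, 32, 40, or 44 hr). The fitted period of *RORA* in 6AN ran from 22.7 to 32 hr with 1 time point left out, the last without 24 hr. Levels kept their direction under each alternative, with log2 ratios of 0.52 to 0.76 for *NR1D1*, 0.32 to 0.44 for *NR1D2*, and 0.85 to 0.91 for *RORA* with 1 time point left out. The block pairs the 2 libraries of the same hour, since each condition has 1 library per time point.

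With the input change subtracted, the log2 change of CLOCK was 0.71 in intron 1 of *NR1D1*, 1.22 at its intergenic site, 0.67 at its promoter, and -0.28 at *NR1D2*, and that of BMAL1 was 0.054, 0.34, -0.30, and -1.15. With the median over shared sites subtracted, CLOCK was -0.031, 0.68, 0.15, and -0.41 and BMAL1 -0.051, 0.43, -0.18, and -0.64. After subtraction of input, H3K4me3 was -0.38, 0.22, -0.40, and -0.53 and H3K9ac -0.27, -0.96, -0.13, and -0.61 at the same sites in this order. Input rests on 9 to 27 tags per site, and the cause of these moves was not tested. A pseudocount of 5 and the control site list moved no ChIP-seq change beyond its counting interval.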
